A study of Mus musculus with 13 samples.

Results

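Neuregulin 1 (Nrg1), its receptor subunits Erbb2 and Erbb4, and the muscarinic acetylcholine receptor Chrm2 were followed in spinal motoneurons of mice with a mutant SOD1 transgene, a model of amyotrophic lateral sclerosis. These 4 genes, taken as a set by name and function, were found by symbol among the 48709 gene rows of the count tables. All 4 were among the 17403 genes with enough counts to test.

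Large cholinergic terminals called C-boutons contact the cell body and proximal dendrites of alpha motoneurons. They come from local spinal interneurons of the V0c class, and they raise motoneuron firing through the M2 muscarinic receptor encoded by Chrm2. Opposite each terminal the motoneuron membrane holds M2 receptors and clustered potassium channels above a flattened sheet of endoplasmic reticulum, and neuregulin 1 made by the motoneuron collects in that sheet. Neuregulin 1 binds ErbB3, which needs a partner such as ErbB2 to signal, or ErbB4, which can signal alone or with a partner. ErbB2 binds no ligand itself. Outside this synapse, axonal neuregulin 1 is known for driving Schwann cell myelination through ErbB2 and ErbB3.

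All mice carried SOD1-G93A and were killed at 65 days of age, so no healthy mice enter the comparisons. The AAV-miR SOD1 group (n = 4) had received, into the cerebral ventricles at postnatal day 2, an adeno-associated virus expressing an artificial microRNA against human SOD1 in astrocytes. The AAV-miR ctrl group (n = 5) had received a control vector in the same way, and the non-injected group (n = 4) were littermates without injection. Each library was made from 500 motoneurons of a mouse, cut by laser from cresyl violet-stained lumbar cord that was frozen inside its vertebrae. The promoter that drives the microRNA is not given in the labels. The study asks how motoneurons respond when the mutant protein is targeted in neighbouring astrocytes.

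Counts assigned to genes ranged from 13.9 to 37.4 megacounts per library, and the 4 deepest libraries, numbered 5 or 6, were all controls. Every motoneuron marker on a list of 8 had counts in every library. The summed level of this list was 528 to 1033 CPM (reads scaled to a common library size) in AAV-miR SOD1 libraries, 737 to 2288 in AAV-miR ctrl and 910 to 2340 in non-injected libraries. A list of 8 erythroid genes was at 21125 to 47797, 3597 to 28327 and 5606 to 20357 CPM in the same order. The column headers of non-injected replicate 3 and AAV-miR ctrl replicate 3 each carried the sample name of the other, and the labels were followed. With laser-cut bulk samples, fewer motoneurons in the material and less of an RNA per motoneuron cannot be told apart.

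Per exonic length, the order of the 4 genes was the same in 13 of 13 libraries, with Chrm2 highest, then Nrg1, Erbb2 and Erbb4. The median level was 9.0 CPM per kb for Chrm2 (range 5.27 to 16.6), 5.30 for Nrg1 (3.06 to 9.56), 0.921 for Erbb2 (0.146 to 1.58) and 0.0787 for Erbb4 (0.00767 to 0.152). The ranges of Chrm2 and Nrg1 overlapped across libraries, but within each library Chrm2 was the higher of the pair per length. This order of the pair depends on the lengths used, all annotated exons joined, 10.4 kb for Nrg1 and 6.05 kb for Chrm2. Before that division, reads of Nrg1 per read of Chrm2 ranged from 0.850 to 1.24 over the libraries. The length of the Nrg1 transcripts present is not known. For scale, Chat, the acetylcholine-synthesising enzyme of motoneurons and other cholinergic cells, had a median of 17.6 CPM per kb. Erbb4, the receptor that neuregulin 1 can use without a partner, was thus the scarcest member, with 2 to 62 reads per library.

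Chrm2 (ENSMUSG00000045613, GRCm38 chromosome 6, 36388084 to 36528414, plus strand) encodes the receptor on the motoneuron side of the C-bouton. It was at 31.9, 45.2, 37.2 and 44.2 CPM in AAV-miR SOD1 replicates 1, 2, 3 and 4. In AAV-miR ctrl replicates 1, 3, 4, 5 and 6 it was at 46.0, 64.1, 61.6, 89.1 and 76.6 CPM, and in non-injected replicates 2, 3, 5 and 6 at 53.1, 101, 54.5 and 56.8 CPM. All 4 AAV-miR SOD1 libraries therefore lay below all 9 control libraries, although the gap between AAV-miR SOD1 replicate 2 and AAV-miR ctrl replicate 1 was narrow. Such a gap with AAV-miR SOD1 lower was seen for 1.23% of all tested genes, for 2.46% against AAV-miR ctrl alone and for 5.81% against non-injected alone.

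On the log2 CPM scale Chrm2 was at 5.30 ± 0.24 (SD, n = 4) in AAV-miR SOD1, 6.04 ± 0.36 (SD, n = 5) in AAV-miR ctrl and 6.00 ± 0.44 (SD, n = 4) in non-injected libraries. The log2 fold change against AAV-miR ctrl was -0.77 ± 0.24 (SE), with an edgeR unadjusted p of 0.00683 and an adjusted p of 0.256 over all genes. Chrm2 stood -0.74 ± 0.25 (SE) from the non-injected littermates, with an edgeR unadjusted p of 0.0111 and an adjusted p of 0.147. Against the mean of both control groups it was -0.75 ± 0.22 (SE), or 0.593 times the control level, with an edgeR unadjusted p of 0.00437 and an adjusted p of 0.102. AAV-miR ctrl and non-injected libraries differed by 0.03 (95% interval -0.48 to 0.54), which leaves room for a difference of either sign between them. So Chrm2 was the member with the smallest p in each comparison that involves AAV-miR SOD1, and it did not pass the adjusted threshold of 0.05.

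Nrg1 (ENSMUSG00000062991, GRCm38 chromosome 8, 31814551 to 32884029, minus strand) encodes the ligand. It was at 36.3, 53.9, 31.7 and 46.1 CPM in AAV-miR SOD1 replicates 1, 2, 3 and 4. AAV-miR ctrl replicates 1, 3, 4, 5 and 6 were at 43.8, 54.8, 57.1, 84.8 and 94.8 CPM, and non-injected replicates 2, 3, 5 and 6 at 50.6, 98.9, 55.0 and 70.3 CPM. All 4 AAV-miR SOD1 libraries lay below the mean of the controls, but replicates 2 and 4 overlapped the lower control libraries. GENCODE M21 lists 12 protein-coding transcripts of Nrg1, from which membrane-bound and secreted forms are made, and a count per gene does not separate them.

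Compared with AAV-miR ctrl, Nrg1 had a log2 fold change of -0.68 ± 0.27 (SE), with an edgeR unadjusted p of 0.0268 and an adjusted p of 0.301. For the non-injected littermates as reference, the value for Nrg1 was -0.71 ± 0.29 (SE), with an edgeR unadjusted p of 0.0262 and an adjusted p of 0.185. Against the mean of both control groups it was -0.69 ± 0.25 (SE), or 0.618 times the control level, with an edgeR unadjusted p of 0.0151 and an adjusted p of 0.134. The control groups differed by -0.03 (95% interval -0.61 to 0.54). Ligand and muscarinic receptor thus stood lower by similar amounts, both without passing the adjusted threshold. Because the same AAV-miR SOD1 libraries enter each of these comparisons, they do not stand as separate evidence.

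**Figure D1:**
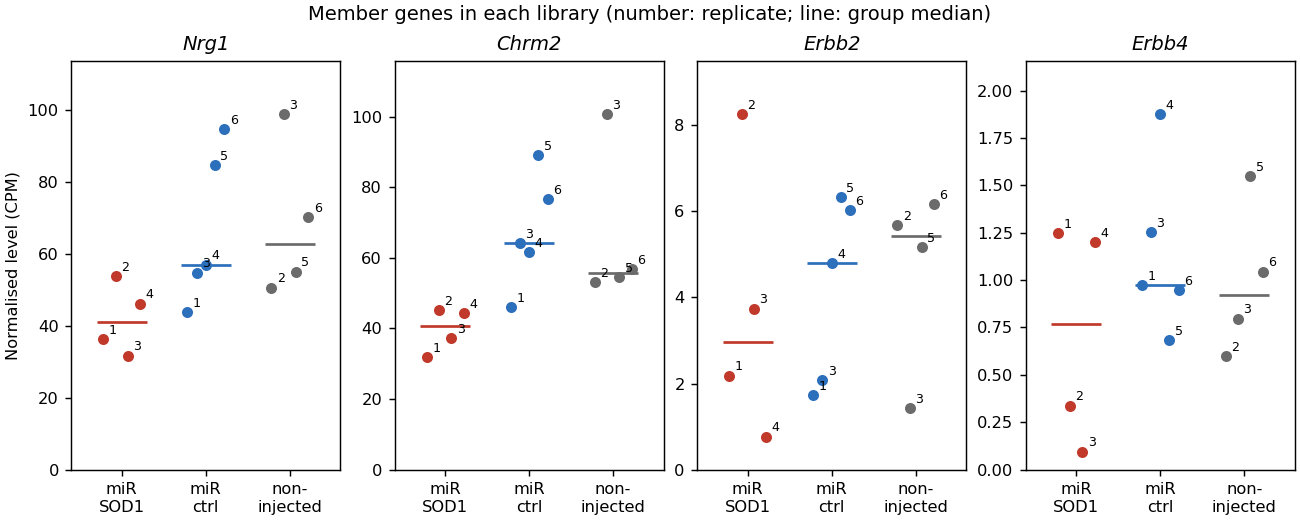
Level of each of the 4 genes in every library, in CPM scaled by TMM (y axis, starting at 0), for the 3 groups (x axis). Points are libraries with their replicate number and lines are group medians. For Chrm2 the AAV-miR SOD1 points, from 31.9 to 45.2 CPM, lie below every control point, while the other 3 genes overlap.

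Erbb2 (ENSMUSG00000062312, GRCm38 chromosome 11, 98412470 to 98437716, plus strand) encodes the receptor partner that binds no ligand. AAV-miR SOD1 replicates 1, 2, 3 and 4 were at 2.18, 8.26, 3.74 and 0.759 CPM, so the highest and the lowest of all 13 libraries were in the same group. AAV-miR ctrl replicates 1, 3, 4, 5 and 6 were at 1.72, 2.07, 4.80, 6.34 and 6.03 CPM. Non-injected replicates 2, 3, 5 and 6 were at 5.67, 1.42, 5.17 and 6.17 CPM. The log2 fold change against the mean of both control groups was -0.23 ± 0.56 (SE), with an edgeR adjusted p of 0.851. Its 95% interval, -1.44 to 0.97, does not bound a change of either sign below the size seen for Chrm2.

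Erbb4 (ENSMUSG00000062209, GRCm38 chromosome 1, 68032186 to 69108059, minus strand) encodes the receptor that binds neuregulin and signals by itself. It had 28, 7, 2 and 19 reads in AAV-miR SOD1 replicates 1, 2, 3 and 4. It had 22, 26, 25, 26 and 28 reads in AAV-miR ctrl replicates 1, 3, 4, 5 and 6 and 13, 14, 62 and 35 in non-injected replicates 2, 3, 5 and 6. Replicate 3 of AAV-miR SOD1 had fewer reads than the 3 taken as the floor of detection, and replicates 1 and 4 lay inside the control range. The log2 fold change was -0.57 ± 0.59 (SE) against both control groups, with an edgeR adjusted p of 0.615 and a 95% interval of -1.83 to 0.69. That interval includes both no difference and one of the size estimated for Nrg1.

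Of the 4 members, 0 had an edgeR adjusted p under 0.05 in any of the 4 comparisons, where 0% of all genes did. At an unadjusted p under 0.05, 2 of 4 were lower against AAV-miR ctrl, where 8.54% of all genes were, and the same 2, Nrg1 and Chrm2, were lower against non-injected, where 11.5% were. Against the mean of both control groups these 2 were again lower, beside 12.1% of all genes, and between the control groups 0 members passed, beside 3.61% of genes. DESeq2 called Chrm2 against both control groups, with an adjusted p of 0.0297, where it called 8.74% of genes. Limma-voom with quality weights also called it there, with an adjusted p of 0.0418, where it called 8.40% of genes. Without AAV-miR ctrl replicate 1, edgeR called Chrm2 there with an adjusted p of 0.0338, beside 9.84% of genes. With the labels as given, DESeq2 called 0 members against AAV-miR ctrl, against non-injected and between the control groups, where it called 1.03%, 5.89% and 0.0115% of genes, and limma-voom called 0 members and 0% of genes in each of these.

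Non-injected replicate 3, whose header disagrees with its label, had the highest Chrm2 and Nrg1 of all libraries. Without it, the log2 fold change of Chrm2 against non-injected was -0.47, with an edgeR unadjusted p of 0.0554, and that of Nrg1 was -0.49, with an edgeR unadjusted p of 0.109. With both libraries of disagreeing headers left out, the values against both control groups were -0.56 for Chrm2 (edgeR unadjusted p = 0.0122) and -0.55 for Nrg1 (edgeR unadjusted p = 0.0391). In that fit the values against non-injected alone were -0.39 and -0.41, with edgeR unadjusted p of 0.106 and 0.168, so neither gene passed 0.05 there. With their labels exchanged, the values against AAV-miR ctrl were -0.92 for Chrm2 and -0.85 for Nrg1, with edgeR adjusted p of 0.0923 and 0.108. The exchange moved the values against non-injected the other way, to -0.53 for Chrm2 (edgeR unadjusted p = 0.0355) and -0.46 for Nrg1 (edgeR unadjusted p = 0.102). DESeq2 with the exchange called both genes against AAV-miR ctrl, with adjusted p of 0.00706 and 0.0300, where it called 7.80% of genes, and Chrm2 against both control groups, with 0.0215, where it called 8.25%. In the libraries numbered 1 to 4, which all 3 groups hold, Chrm2 was lower than in both control groups by a log2 fold change of -0.73 (edgeR unadjusted p = 0.0114) and Nrg1 by -0.55 (edgeR unadjusted p = 0.0579). In these libraries the values against AAV-miR ctrl alone were -0.52 for Chrm2 and -0.29 for Nrg1, with edgeR unadjusted p of 0.0748 and 0.334, and against non-injected alone -0.93 and -0.81, with 0.00890 and 0.0289. With the replicate number as a block, Nrg1 passed 0.05 in none of the 3 comparisons (edgeR unadjusted p of 0.164, 0.233 and 0.154) and Chrm2 did not pass against non-injected (edgeR unadjusted p = 0.10). For Nrg1 single libraries also decided the unadjusted call: without AAV-miR SOD1 replicate 3 its value was -0.52 against both control groups, -0.50 against AAV-miR ctrl and -0.54 against non-injected, with edgeR unadjusted p of 0.0778, 0.109 and 0.102. Without AAV-miR SOD1 replicate 1 the p was 0.0671 against AAV-miR ctrl and 0.0636 against non-injected, and without AAV-miR ctrl replicate 5 or 6 it was 0.0644 and 0.0947 against AAV-miR ctrl, all in edgeR and unadjusted.

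**Figure D2:**
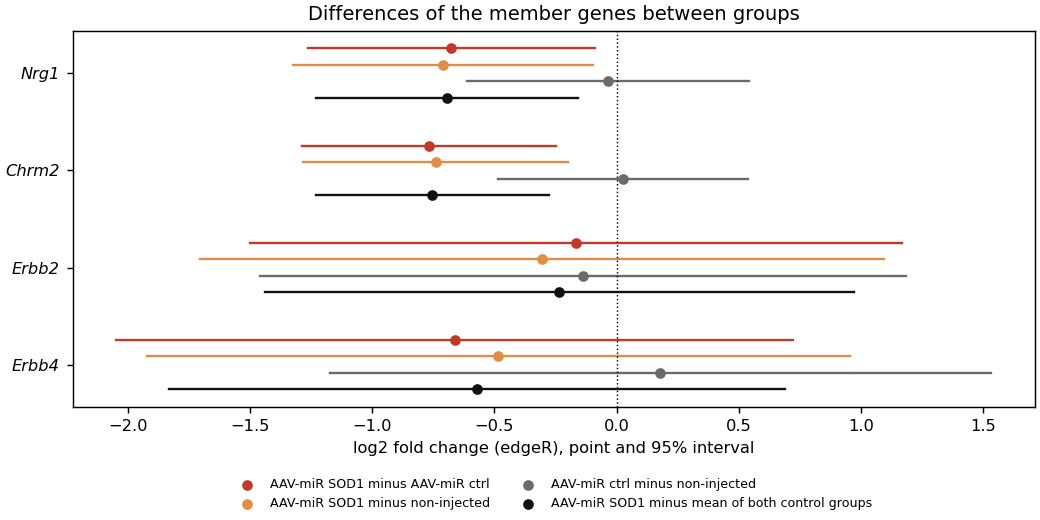
Log2 fold change of each gene (x axis) with its 95% interval from edgeR's quasi-likelihood fit, for the 4 comparisons by colour. For Nrg1 and Chrm2 the intervals of the 3 comparisons with AAV-miR SOD1 lie below 0, and for Erbb2 and Erbb4 they all cross 0.

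The levels of Chrm2 and Nrg1 were next set against Chat in the same libraries. Reads of Chrm2 per read of Chat were 0.670, 0.677, 0.953 and 0.671 in AAV-miR SOD1 replicates 1, 2, 3 and 4. They ranged from 0.614 to 0.869 in AAV-miR ctrl and from 0.553 to 0.649 in non-injected libraries. Reads of Nrg1 per read of Chat were 0.700 to 0.810 in AAV-miR SOD1, 0.585 to 0.787 in AAV-miR ctrl and 0.559 to 0.701 in non-injected libraries. For both genes the ratios of AAV-miR SOD1 overlapped those of AAV-miR ctrl, and for Chrm2 3 of the 4 lay just below the AAV-miR ctrl median of 0.682. For Chrm2 the lowest AAV-miR SOD1 ratio, 0.670, was just above the highest non-injected one, 0.649. The share of all genes with such a gap per read of Chat was not computed. For Nrg1 the lowest AAV-miR SOD1 ratio fell within the non-injected range. These ratios were not tested. Chat itself had a lower estimate in AAV-miR SOD1, at -0.91 ± 0.24 (SE) relative to the pooled controls on the log2 scale, with an edgeR adjusted p of 0.0960.

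With the mean log2 level of the 8 motoneuron markers as a covariate, added after the data had been seen, the log2 fold change against both control groups was -0.26 ± 0.18 (SE) for Chrm2 and -0.07 ± 0.17 (SE) for Nrg1. The edgeR unadjusted p was 0.174 and 0.677. With the mean of the erythroid genes as covariate, the values were -0.13 ± 0.26 (SE) and -0.11 ± 0.35 (SE). Both marker lists moved with the groups, so these fits compare libraries at equal marker levels that the groups share only in part.

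**Figure D3:**
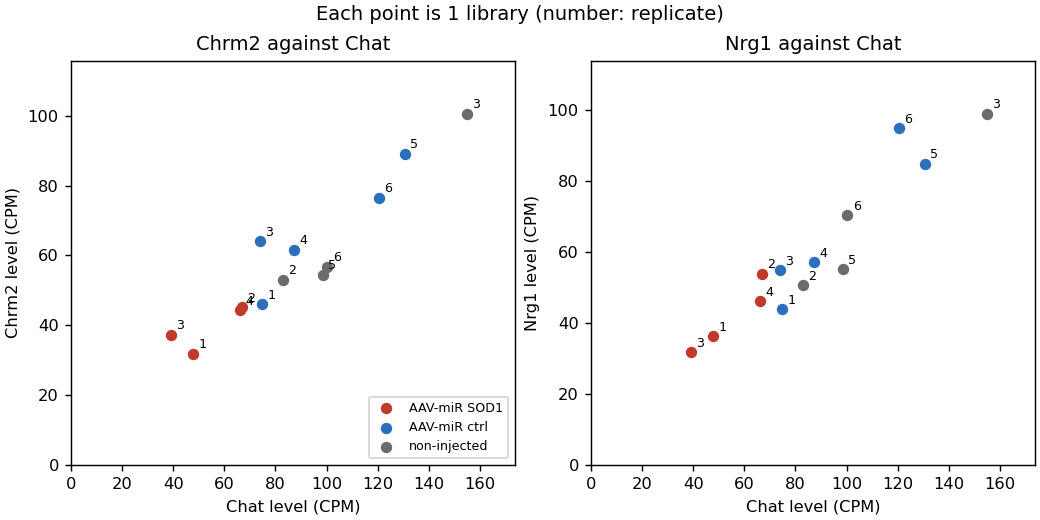
Level of Chrm2 (left) and Nrg1 (right) against that of Chat in the same library, all in CPM on axes from 0, with 1 point per library. The AAV-miR SOD1 points lie at the low end of both axes, between 39.1 and 66.8 CPM of Chat, and the libraries of all groups spread along a common band.

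Across the 13 libraries the log2 CPM of Nrg1 and Chrm2 had a Pearson's r of 0.93, and of 0.89 after each group's mean was removed. Erbb2 and Erbb4 had r between -0.24 and 0.28 with the other members. Of 10349 tested genes with a mean log2 CPM of at least 3, those most like Chrm2 were Cpeb1, a translation regulator, with r of 0.99, Dnaja1, a heat shock co-chaperone, with 0.98, and Prkar1a, a protein kinase A subunit, with 0.98. Those most like Nrg1 were Ptprn, a protein of secretory granules, with r of 0.97, Slc7a14 with 0.97 and Ret, a receptor for GDNF family ligands, with 0.97. For each of these 2 members a large share of genes had r over 0.8, 10.5% for Chrm2 and 10.3% for Nrg1. Erbb2 was most like Htra3 (r of 0.82) and Sfrp5 (0.80), secreted proteins, and Spata6 (0.80). Erbb4 was most like Rad1 (0.78), Lamp5 (0.76) and Atg13 (0.75). These values describe 13 libraries that share their group structure and marker content.

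Among the neuregulins, Nrg1 exceeded Nrg4, the next highest, per length in 13 of 13 libraries. Medians were 1.44 CPM per kb for Nrg4, 0.733 for Nrg3 and 0.285 for Nrg2. Of the 4 neuregulins, 1 (Nrg1) was lower against both control groups at an unadjusted p under 0.05, beside 12.1% of all genes, and 0 were higher, beside 10.2%. Nrg3 had a log2 fold change of -0.61 ± 0.29 (SE) there and an edgeR adjusted p of 0.230. By sign, 2 of the 4 neuregulins were negative there and 2, Nrg2 and Nrg4, were positive, the highest at 0.25. Nrg2 and Nrg4 were at 0.83 and 0.59 against AAV-miR ctrl but at -0.42 and -0.09 against non-injected. Against non-injected all 4 were negative, and 2 were lower at an unadjusted edgeR p under 0.05, beside 11.5% of all genes. These were Nrg1 and Nrg3, the latter at -0.73 ± 0.33 (SE). With both libraries of disagreeing headers left out, 0 of the 4 passed against non-injected. Hbegf, another ligand of ErbB4, had a median of 4.47 CPM per kb. Its log2 fold change against both control groups was -0.64 ± 0.24 (SE), with an edgeR adjusted p of 0.140. Btc, also a ligand of ErbB4, was tested with a value of 0.05 ± 0.80 (SE), and Ereg had 0 reads in each of the 13 libraries.

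Among the receptors, Erbb2, Egfr and Erbb3 stood at medians of 0.921, 0.657 and 0.574 CPM per kb with overlapping ranges, and Erbb4 was below Erbb3 in 13 of 13 libraries. Of the 4 receptors, 0 passed an unadjusted p of 0.05 against both control groups in edgeR, where 22.2% of all genes did. The median log2 fold change of the receptors was -0.40 beside -0.06 for all genes. Erbb3, which pairs with ErbB2 and is known in Schwann cells and oligodendrocyte lineage cells, was at -0.64 ± 0.54 (SE). The 4 Schwann cell genes on a marker list were at summed levels of 230 to 919 CPM in AAV-miR SOD1, 331 to 847 in AAV-miR ctrl and 799 to 1025 in non-injected libraries, so cells other than motoneurons contributed RNA. Their part in the ErbB levels was not tested.

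Proteases that cut the neuregulin precursor were all detected. Of 5, 1 was higher and 0 were lower against both control groups at an unadjusted p under 0.05, where 10.2% of genes were higher. That gene was Adam10, a membrane sheddase, with 0.69 ± 0.24 (SE) and an edgeR adjusted p of 0.124. Of 18 genes that carry or limit ErbB signals, 2 were higher (Erbin and Pik3r1) and 2 lower (Pik3r3 and Dlg4) at that level. Among all genes, 10.2% were higher and 12.1% lower. The list median was -0.14 beside -0.06 for all genes. Pik3r3, a regulatory subunit of PI3-kinase, was at -0.77 ± 0.25 (SE), with an edgeR adjusted p of 0.114. The other 3 were named after their values were seen: Dlg4 encodes the scaffold PSD-95, Erbin a scaffold that binds ErbB2, and Pik3r1 another regulatory subunit of PI3-kinase.

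**Figure D4:**
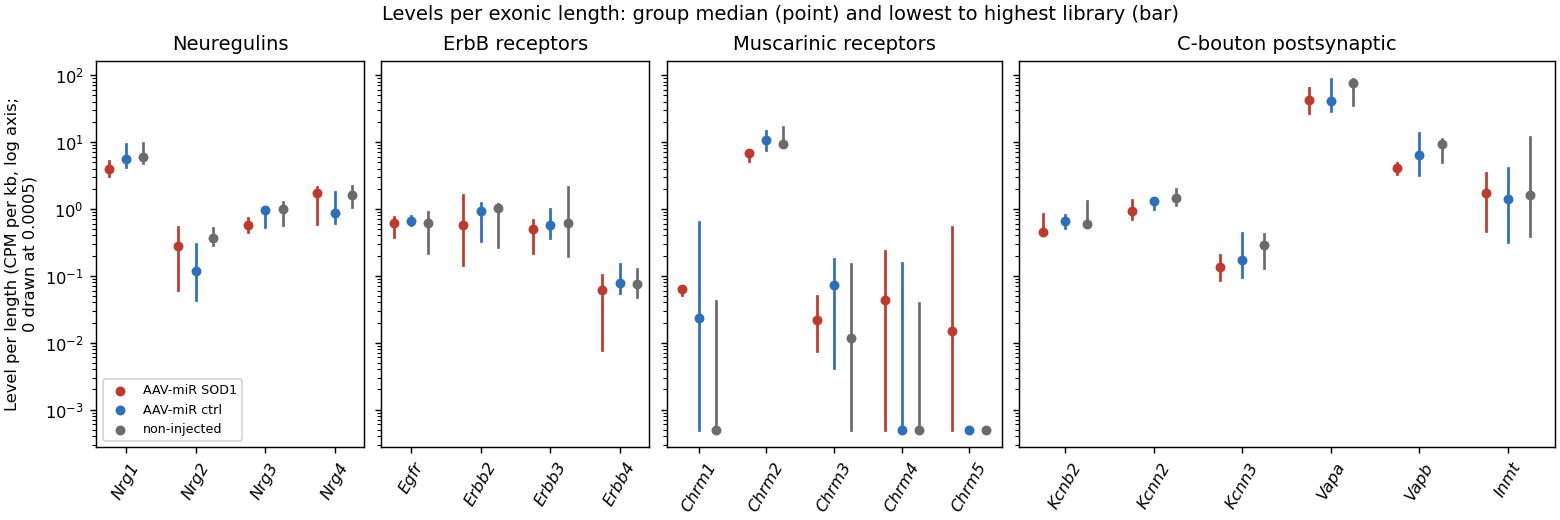
Level per exonic length (CPM per kb, log axis) of the neuregulins, ErbB receptors, muscarinic receptors and C-bouton postsynaptic genes, by group. Points are group medians, bars run from the lowest to the highest library, and values of 0 are drawn at the bottom of the axis. Chrm2 stands above the other 4 muscarinic receptors in every group and Nrg1 above the other neuregulins.

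Of the 5 muscarinic receptors, 1 (Chrm2) had enough counts to test. Chrm1 had a median of 5 reads and at most 85, Chrm3 a median of 4 and at most 23, Chrm4 at most 7 and Chrm5 at most 18. Chrm4 had 0 reads in 8 libraries and Chrm5 in 11.

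Other genes of the C-bouton's motoneuron side also had lower estimates in AAV-miR SOD1. Their list was chosen with earlier results of these data known and includes Chrm2, so its counts do not stand as separate evidence. Of 7 genes on this list, Chrm2 included, 7 of 7 had a negative log2 fold change against both control groups, 2 at an unadjusted p under 0.05 (12.1% of all genes were lower at that level) and 0 at an adjusted one in edgeR, with a median of -0.48 beside -0.06 for all genes. Beside Chrm2, the gene past the unadjusted threshold was Vapb, an endoplasmic reticulum tether that is mutated in a familial form of the disease, at -0.94 ± 0.32 (SE) with an edgeR adjusted p of 0.123. The small-conductance calcium-activated channels Kcnn2 and Kcnn3, which shape the afterhyperpolarisation, were at -0.46 ± 0.23 (SE) and -0.79 ± 0.48 (SE), with edgeR adjusted p of 0.255 and 0.354. Against AAV-miR ctrl alone 2 of the 7 were lower at an unadjusted p under 0.05, beside 8.54% of all genes. Against non-injected it was 3, beside 11.5%, and between the control groups 0 in either direction, beside 3.61%. Without both libraries of disagreeing headers, 7 of 7 were again below 0 against both control groups, with a median of -0.39 beside 0.008 for all genes. In that fit 2 of the 7 passed an unadjusted edgeR p under 0.05 in either direction, and both were lower. Among all genes, 3126 of 17771 passed in either direction.

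Of 4 genes of the presynaptic cholinergic cell, 4 were lower at an unadjusted p under 0.05, beside 12.1% of all genes, but Chat, Slc18a3, Slc5a7 and Ache are also expressed by the motoneurons themselves. Slc5a7, the choline transporter, was at -1.01 ± 0.25 (SE), with an edgeR adjusted p of 0.0960. The motoneuron marker list, which also holds Chat, Slc18a3 and Slc5a7, had 7 of 8 genes lower at that level and a median of -1.06. The erythroid list had 8 of 8 higher, beside 10.2% of all genes, and a median of 1.64. Beyond the covariate fits given above for Chrm2 and Nrg1, the part of marker content in the values of the C-bouton genes was not tested.

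Downstream of M2 receptors, the list of 12 genes split by direction. Of 11 tested, 4 were lower and 4 higher against both control groups at an unadjusted p under 0.05, where 12.1% and 10.2% of all genes were, and 0 passed the adjusted threshold in edgeR. Gnao1, the G protein subunit most abundant in neurons, was at -1.04 ± 0.25 (SE), with an edgeR adjusted p of 0.0960. Its AAV-miR SOD1 libraries did not overlap the controls, and 1.23% of all tested genes had such a gap with AAV-miR SOD1 lower. Kcnj9 and Kcnj3, subunits of G protein-gated potassium channels, were at -1.19 ± 0.45 (SE) and -0.49 ± 0.22 (SE), and Rgs4, which shortens G protein signals, at -1.19 ± 0.29 (SE). Arrb1, Arrb2 and Grk2, which end receptor signalling and are also expressed in blood and immune cells, were at 0.76 ± 0.24 (SE), 0.58 ± 0.27 (SE) and 0.57 ± 0.21 (SE), and the inhibitory subunit Gnai3 was at 0.65 ± 0.25 (SE). The genes named in this paragraph beside Gnao1 were chosen after their values were seen, as the 8 past the unadjusted threshold.

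**Figure D5:**
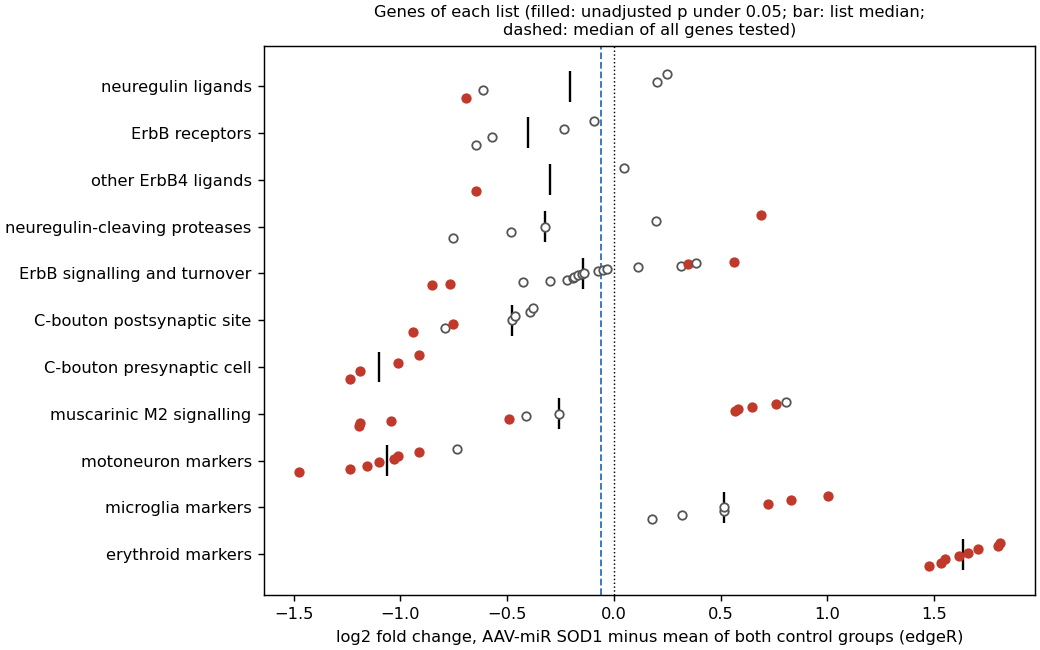
Log2 difference between AAV-miR SOD1 and the mean of the control groups (x axis) for the tested genes of each list (rows). Filled points have an unadjusted edgeR p under 0.05, black bars are list medians and the dashed line is the median of all genes, -0.06. All 7 C-bouton postsynaptic genes lie below 0, with motoneuron markers lower (median -1.06) and erythroid markers higher (median 1.64).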

How the data were processed

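Each deposited table gives raw read counts per Ensembl gene for 1 library, with 5 summary rows that were left out; reads aligned to more than 1 place made up 42.3% to 56.8% of all reads listed. The submitters' processing notes name cutadapt 1.8, STAR 2.5.2b, HTSeq 0.6.1 and the build GRCm38; strand setting and annotation are not given in the sources used here. Symbols, coordinates and exonic lengths came from GENCODE M21 (GRCm38), which named 48349 of 48709 rows. Exons of Chrm2 share 142 bases with 9330158H04Rik and those of Nrg1 482 with Gm26578, on the other strand.

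Genes were filtered with edgeR's filterByExpr (minimum count 10, total 15), scaled by TMM and tested with edgeR 4.0.16's quasi-likelihood F test (R 4.3.3) over 13 libraries and 3 groups, with Benjamini-Hochberg adjustment over 17403 genes. CPM values use TMM-scaled library sizes, log2 CPM a prior count of 2, and 3 reads are taken as the floor. Alternatives were RLE and upper quartile scaling, other filters, DESeq2 1.42.0, limma-voom (limma 3.58.1), the groups compared alone, a replicate block, the libraries numbered 1 to 4, a header exchange, a threshold of 0.1 and leaving out each library. Covariate fits, DESeq2 with the header exchange and the fit without both disagreeing libraries were added after the data were seen. The fit was also run on simulated counts with known changes but no group difference in marker content. That run does not bear on the marker shifts between these groups. The genes and lists were chosen with earlier results of these data known. Some genes of the C-bouton lists are not reported here, and the counts leave them out. Genes named are the members, the ligand, receptor and C-bouton lists, the smallest p of each other list, and per member the 3 most correlated genes; others are marked. The floor of 3 reads does not cover the counting error of counts above it. Replicates are libraries of separate mice, per the labels' protocols.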

Additional observations from a re-analysis of the deposited data

Results flagged for a closer look

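Among 12 sets of group levels examined (4 genes in 3 groups), 2 held a library with an unusually wide gap to the rest, where chance gives about 1 in 20, or 0.6. Both were non-injected replicate 3, whose column header names AAV-miR ctrl. Chrm2 was at 6.65 log2 CPM in this library, and the nearest of the other 3 non-injected libraries was at 5.83. Erbb2 was at 0.59 log2 CPM there, and the nearest was at 2.39. The library thus had the most Chrm2 and the least Erbb2 of its group. It also had the highest Chat of all libraries, 155 CPM, and the lowest Erbb3, 1.20 CPM. The cause was not tested.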

How the results depend on the processing

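Against both control groups Chrm2 was lower in 26 of 26 alternatives and Nrg1 in 26 of 26, and their unadjusted p was 0.05 or more in 2 (both marker covariates) and 5 of them. The number of members past the adjusted threshold was 0 in each comparison in the edgeR fit of all 13 libraries. Against both control groups it was 1 (Chrm2) with DESeq2, limma-voom and DESeq2 with the header exchange, and between 0 and 1 in edgeR with each library left out (1 without AAV-miR ctrl replicate 1). Against AAV-miR ctrl it was 2 with DESeq2 and the header exchange. Same-numbered libraries had correlations of their deviations from -0.189 to 0.243, so the numbers were not taken to pair samples. With the replicate block, Chrm2 was at -0.68 against AAV-miR ctrl, -0.55 against non-injected and -0.62 against both, and Nrg1 at -0.50, -0.46 and -0.48, with 0 members past the adjusted threshold. The block took the unadjusted p of Nrg1 to 0.05 or more in all 3 and that of Chrm2 against non-injected. The following signs turned. With the block, Erbb2 was at 0.41 against non-injected, 0.14 against both groups and 0.53 between the control groups, where Nrg1 was at 0.046 and Erbb4 at -0.33. In the libraries numbered 1 to 4, Erbb2 was at 0.43 against AAV-miR ctrl, 0.11 against non-injected and 0.27 against both, Erbb4 at 0.059 against non-injected, and Chrm2 at -0.42 between the control groups. With the motoneuron covariate, Erbb2 was at 0.31, 0.15 and 0.23 in that order, and Nrg1 at 0.018 against non-injected and 0.18 between the control groups. With the erythroid covariate, Erbb2 was at 0.12 against AAV-miR ctrl and 0.035 against both, and Nrg1 at 0.059 between the control groups. Between the control groups Nrg1 was at 0.40 and Erbb4 at -0.091 with the header exchange, 0.41 and -0.083 with DESeq2 and the exchange, and Nrg1 at 0.27 without both disagreeing libraries. With each library left out, Erbb2 ranged from -0.90 to 0.17 against AAV-miR ctrl, -1.03 to 0.028 against non-injected, -0.97 to 0.10 against both and -0.43 to 0.060 between the control groups. Between the control groups, Nrg1 then ranged from -0.18 to 0.19, Erbb4 from -0.060 to 0.50 and Chrm2 from -0.093 to 0.30. The cause of these changes was not tested. Erbb4 had 2 to 62 reads per library and Erbb2 12 to 241, and their standard errors against both control groups were 0.59 and 0.56.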

Other observations

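Marker lists of cells other than motoneurons were read beside the members in the comparison with both control groups, where 10.2% of all genes were higher and 12.1% lower at an unadjusted edgeR p under 0.05. Microglia genes had 3 of 7 higher and 0 lower at an unadjusted edgeR p under 0.05, with Tyrobp, a signalling adaptor of myeloid cells, at 1.00 ± 0.30 (SE) and an edgeR adjusted p of 0.103. Astrocyte genes had 1 of 7 lower, Aldoc, at -0.96 ± 0.24 (SE), and oligodendrocyte genes 0 of 6 in either direction, with Mag at -0.56 ± 0.33 (SE). Among Schwann cell genes 1 of 4 was lower, Pmp22, at -0.64 ± 0.29 (SE). Interneuron, endothelial and oligodendrocyte precursor lists had 0 of 5, 0 of 4 and 0 of 3 genes past that level, with Slc6a5 at -0.25 ± 0.31 (SE), Cdh5 at 0.46 ± 0.31 (SE) and Gpr17 at -2.12 ± 1.46 (SE). Klf1 had the smallest p of the erythroid list, at 1.81 ± 0.41 (SE) and an edgeR adjusted p of 0.0960. None of these genes passed the adjusted threshold of 0.05 in edgeR.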
